A study of Mus musculus with 26 samples.

Results

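Solute carriers are membrane proteins that move small molecules and ions across the cell surface or between compartments of the cell, and their genes carry the prefix Slc followed by a family number. The genes described here were all rows of the single-cell count tables whose symbol begins with Slc and a digit, with the glucose (Slc2a), monocarboxylate (Slc16a) and mitochondrial (Slc25a) families and the melanosomal genes Slc24a5 and Slc45a2 left out, and with 30 or more unique molecular identifiers (UMIs, 1 for each captured RNA molecule) summed over both libraries. Of 283 such rows, 66 were left out by family or symbol, 39 held fewer than 30 UMIs and 178 remained, out of 16426 genes in the tables. Slc1a2 and Slc1a6, carriers of glutamate and aspartate, fell just short of the limit with 29 UMIs each, and Slc18a2, a vesicular monoamine transporter, had 22. Slc35d3, Slc22a3, Slc6a14 and Slc6a20b were just inside it with 30, 31, 31 and 33 UMIs. Of the 178 genes, 4 encode proteins that are only named after a carrier: the scaffold proteins Slc9a3r1 and Slc9a3r2 (NHERF1 and NHERF2), Slc4a1ap and Slc7a6os.

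The retinal pigment epithelium (RPE) is a single sheet of cells joined by tight junctions, so that ions, amino acids, taurine and waste products pass between the choroidal blood and the photoreceptors only through transporters of its apical and basal membranes. The choriocapillaris, the capillary bed under the RPE, is fenestrated and lets small solutes through freely. Carriers of the Slc6 family use the sodium and chloride gradients to take up amino acids, taurine and neurotransmitters, those of Slc1 take up glutamate, Slc38 glutamine, Slc4 bicarbonate, Slc39 and Slc30 zinc and other metals, and those of Slc35 mostly move nucleotide sugars inside the cell.

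Single-cell RNA sequencing was made from RPE/choroid tissue of 3-month-old mice, with 1 library from B6129PF1/J mice and 1 from C57BL/6J mice, each pooled from a male and a female, and after sorting of live nucleated cells. RPE/choroid tissue was also sequenced in bulk from 6-month-old mice on the C57BL/6J background, 12 weeks after tamoxifen. In Ihh iΔEC/iΔEC mice, tamoxifen-induced Cre under the endothelial Cdh5 promoter removes Indian hedgehog (Ihh). The controls were tamoxifen-treated Ihh+/+ littermates, which by the study's methods carry the same Cre. There were 3 libraries in each group. Another set held GLI1+ stromal cells, sorted by GFP from Gli1GFP/+ mice, expanded in culture, and treated for 24 h with 100 nM of the Smoothened agonist SAG or with DMSO, again with 3 libraries in each group. The labels give the strain of these mice as SWR/J, and the study's methods describe crosses of the line to BALB/c to remove a retinal degeneration allele. Endothelial cells of neural retina, lung, liver and heart of 1-month-old mice, with 3 libraries each, enter through 1 short table. The bulk tables give the authors' group averages in FPKM, a read level scaled to gene length and depth, without single libraries, so no spread, SD or test could be computed for them.

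The B6129PF1/J library held 3637 cells with 17168578 UMIs, at a median of 3881.0 a cell, and the C57BL/6J library held 3928 cells with 15230413 UMIs, at a median of 3174.5. The libraries shared 22 cell barcodes, fewer cells are in the tables than the study sequenced, and no doublets were taken out here. The deposited clusters were grouped into 7 cell types, and the summed level of each type's markers was 8.80 to 358 times that of any other type. Because each strain is 1 library, strain and library cannot be told apart and no test between them was possible. Levels are UMIs per 10,000 of all UMIs of a cell type in a library, written with the B6129PF1/J value first, and the 95% intervals are exact Poisson intervals that cover counting error only. The cell types were clustered on these same cells, so differences between them are a description.

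The RPE gave the largest part of its RNA to these genes, 70.5 and 73.0 UMIs per 10,000 for all 178 genes together. Endothelial cells followed with 57.1 and 59.6, Schwann cells with 44.4 and 41.4, melanocytes with 38.3 and 37.2, stromal cells with 33.5 and 34.7, smooth muscle cells with 30.3 and 29.0, and hematopoietic cells with 23.1 and 28.7. The order of the 7 types was the same in both libraries, with smooth muscle and hematopoietic cells close together in C57BL/6J. The sums include the genes only named after a carrier, which gave 11.4 and 12.7 in endothelial cells. Those genes gave 4.86 and 5.96 in the RPE and 3.70 and 3.26 in Schwann cells. In the RPE the 3 highest genes, the scaffold gene Slc9a3r1 among them, held 24.9% and 24.0% of the UMIs of the 178 genes. The 10 highest held 55.8% and 55.5% there. In endothelial cells the 3 highest genes, the scaffold gene Slc9a3r2 among them, held 49.0% and 51.3%, and in stromal cells 16.7% and 17.2%. The 10 highest held 65.0% and 66.3% in endothelial cells and 36.8% and 39.3% in stromal cells. In the remaining types the 10 highest held 39.1% to 45.9%.

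Classes were set by family number, apart from the genes only named after a carrier. Slc5a5 and Slc5a6, carriers of iodide and vitamins, were therefore counted with the sugar carriers. Carriers of amino acids, taurine and neurotransmitters, 44 of the 178 genes, made the largest class. It includes Slc43a3, a purine base carrier, and Slc3a2, a heavy chain that pairs with carriers. The summed level of this class was 30.0 and 30.3 in the RPE and 23.0 and 24.2 in endothelial cells, against 8.09 to 13.3 in the other types. A single gene, Slc6a6, gave 12.5 and 12.4 of the endothelial sums. The 32 carriers of bicarbonate, protons, chloride and cations reached 11.8 and 12.7 in the RPE, ahead of 5.32 and 5.13 in smooth muscle cells. Carriers of vitamins, peptides and heme stood at 5.65 and 4.91 in the RPE. Lipid, choline and organic ion carriers stood at 7.09 and 7.01 in Schwann cells and 5.86 and 6.33 in the RPE, an order that turned to 9.71 and 9.55 against 10.7 and 11.3 when the 50 highest genes of each type were left out of the total. The 28 carriers of nucleosides and nucleotide sugars stood at 7.47 and 6.65 in Schwann cells, close to stromal cells at 6.34 in C57BL/6J. The RPE stood at 3.42 and 3.43 in this last class, and 0 of its 28 genes were highest in the RPE in both libraries.

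**Figure D1:**
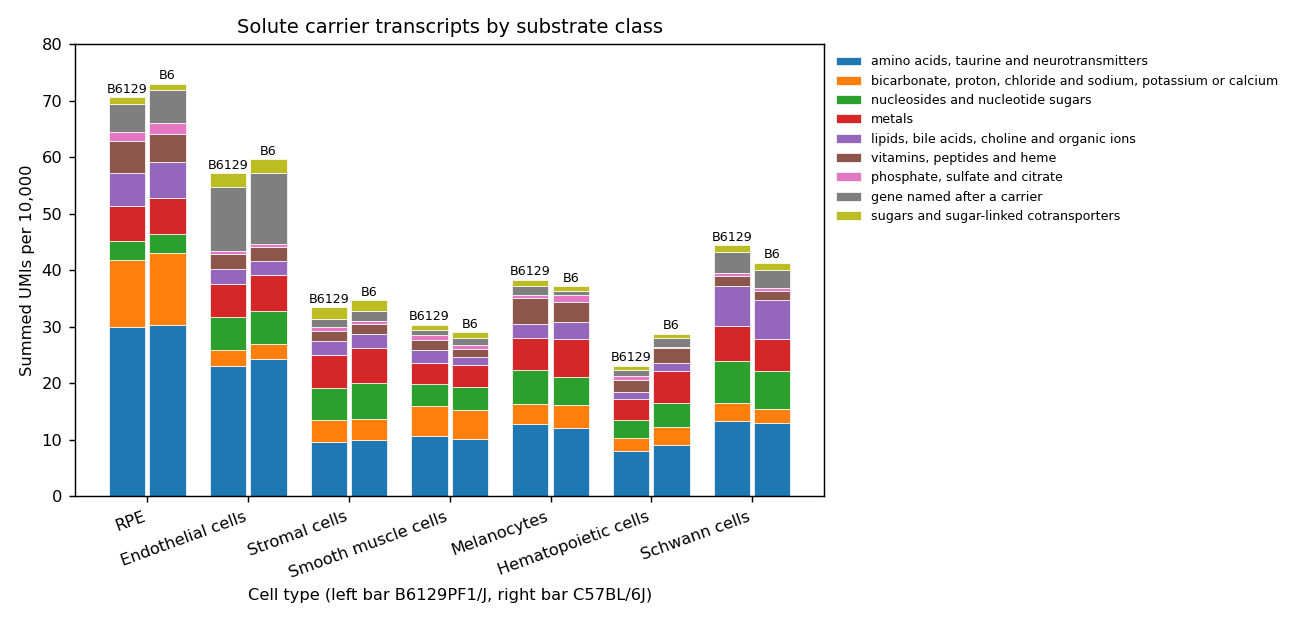
Summed level of each class of solute carriers by cell type, in UMIs per 10,000, for the B6129PF1/J and the C57BL/6J library. Amino acid carriers stand highest in the RPE (30.0 and 30.3) and endothelial cells (23.0 and 24.2), and ion carriers in the RPE (11.8 and 12.7). Slc6a6 alone makes 12.5 and 12.4 of the endothelial amino acid sums.

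In both libraries 123 of the 178 genes, 69.1%, were highest in the same cell type, compared with 60.1% of all 13512 genes with 30 or more UMIs. The RPE was that type for 31 of them, 17.4%, against 8.28% of all genes. In the other types the shares lay near those of all genes. Endothelial cells were highest for 24 genes (13.5% against 13.2% of all genes), stromal cells for 15 (8.43% against 8.15%), hematopoietic cells for 14 (7.87% against 7.82%), Schwann cells for 12 (6.74% against 8.90%) and smooth muscle cells for 10 (5.62% against 6.48%). Melanocytes were highest for 17 (9.55% against 7.36%), and for 10 when each cell was thinned to 1700 UMIs. Melanocytes numbered only 16 and 26 cells, so that the limit that a count of 0 allows was 0.338 and 0.289 UMIs per 10,000 there.

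A gene was called restricted to a cell type when its level there was at least 5 times that of each other type in both libraries, with 10 or more UMIs. By this rule 32 of the 178 genes, 18.0%, were restricted to some type, against 8.36% of all genes. The RPE had 12 of them (1.64% of all genes were restricted to it), endothelial cells 9 (1.59%), stromal cells 3 (0.844%), hematopoietic cells 3 (2.29%), Schwann cells 3 (0.799%), smooth muscle cells 2 (0.851%) and melanocytes 0 (0.348%). Small types could hardly meet the rule. Only 3 of the 178 genes had 10 or more UMIs in melanocytes in each library, against 32 in hematopoietic, 36 in Schwann and 150 in stromal cells.

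**Figure D2:**
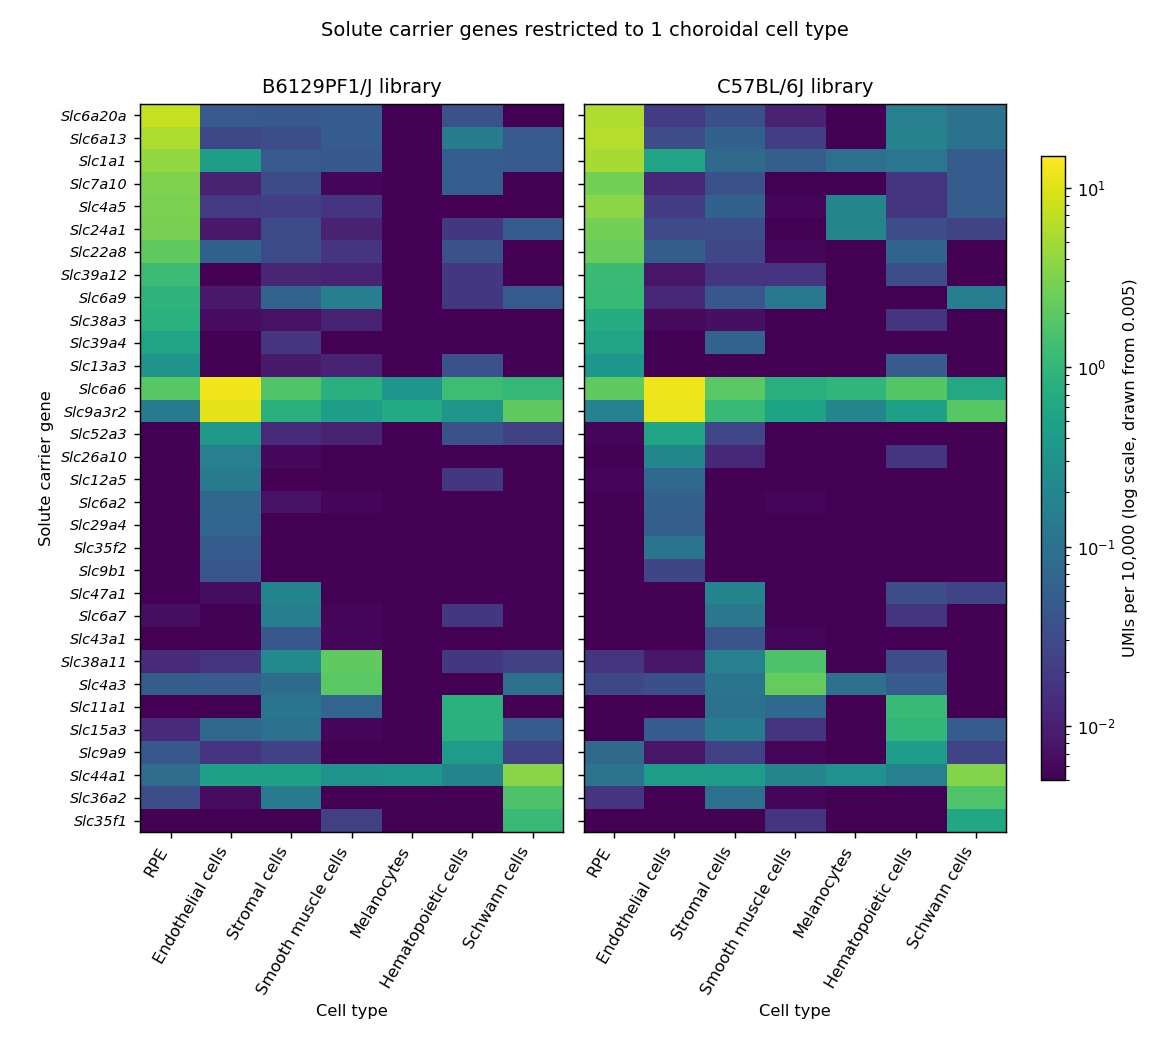
Levels of the 32 restricted solute carriers (rows) in each cell type (columns) and library, in UMIs per 10,000 on a log color scale that starts at 0.005. The RPE block is led by Slc6a20a (7.46 and 5.73) and Slc6a13 (5.55 and 6.18), and the endothelial block by Slc6a6 (12.5 and 12.4) and Slc9a3r2 (10.8 and 12.0).

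Of the 12 genes restricted to the RPE, 6 take up amino acids or related molecules. Slc6a20a, which carries proline and other imino acids, stood at 7.46 and 5.73 UMIs per 10,000 (intervals 7.15 to 7.77 and 5.38 to 6.09), and 97.3% and 95.6% of its UMIs lay in RPE cells. It has a close paralog, Slc6a20b, with 33 UMIs, and reads that match both genes cannot be assigned to either. Slc6a13, the GABA and taurine carrier GAT2, stood at 5.55 and 6.18, and hematopoietic cells came next with 0.146 and 0.181. Slc1a1, the glutamate carrier EAAC1, stood at 4.13 and 5.33, and its next type was endothelial cells at 0.431 and 0.536. Slc7a10 (Asc-1), which exchanges small neutral amino acids including serine and glycine, reached 3.19 and 2.85. Slc6a9, the glycine carrier GlyT1, reached 0.920 and 1.10, and smooth muscle or Schwann cells came next at 0.152 and 0.153. Slc38a3, a glutamine carrier, stood at 0.834 and 0.715, with at most 2 UMIs in the type that came next.

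Ion, metal and organic anion carriers made up the others. Slc4a5, a sodium bicarbonate cotransporter, stood at 3.01 and 3.79. Slc24a1, the sodium, calcium and potassium exchanger first known from rod outer segments, stood at 2.89 and 2.80 in the RPE. Of the 6 rod and cone markers chosen, 3 were in the counts, and their summed level in the RPE was 0.0300 and 0.0172. The part of rod RNA in the Slc24a1 value was not tested. Slc22a8, the organic anion transporter OAT3, reached 2.13 and 2.40 and was next highest in endothelial cells of the B6129PF1/J library at 0.0603. The zinc importers Slc39a12 and Slc39a4 reached 1.23 and 1.16, and 0.540 and 0.538. Slc13a3, a carrier of citrate cycle dicarboxylates, reached 0.313 and 0.360.

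Several genes were high in the RPE without meeting the rule. Slc9a3r1, whose protein anchors membrane transporters to the cytoskeleton below the apical membrane, stood at 4.53 and 5.60 in the RPE and at 1.38 and 1.07 in Schwann cells. Its relative Slc9a3r2 was the reverse, with 0.130 and 0.172 in the RPE and 10.8 and 12.0 in endothelial cells, where Slc9a3r1 had 0.161 and 0.190. Slc48a1, a heme carrier of endosomes, stood at 3.46 and 2.88 in the RPE and 2.14 and 2.22 in melanocytes. The anion exchanger Slc4a2 reached 1.85 and 2.01, the anion exchanger Slc26a7 1.35 and 1.30, and the folate carrier Slc19a1 1.05 and 1.06. Other genes were low in the RPE. Slc38a2, the glutamine carrier SNAT2, had 29 and 9 UMIs there, or 0.0967 (0.0648 to 0.139) and 0.0515 (0.0235 to 0.0977), against 0.788 to 2.63 and 0.867 to 2.79 in the other types. Slc29a1, the nucleoside carrier ENT1, had 0.0734 and 0.137 in the RPE against 0.329 to 1.36 and 0.289 to 1.62.

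The promoter windows of Slc6a13 and Slc39a12 are shown because they were the only ones, of the 14 RefSeq windows found for 10 of the 12 RPE-restricted genes, to hold TAATCC, a motif bound by OTX2, a transcription factor of the RPE. Both windows run from 250 bases before to 50 after an annotated start of the gene, on the plus strand of GRCm38.p6, and cover chr6:121300038-121300337 and chr2:14388148-14388447. Capitals mark matches to TAATCC and to the E-box CATGTG on either strand.
Slc6a13: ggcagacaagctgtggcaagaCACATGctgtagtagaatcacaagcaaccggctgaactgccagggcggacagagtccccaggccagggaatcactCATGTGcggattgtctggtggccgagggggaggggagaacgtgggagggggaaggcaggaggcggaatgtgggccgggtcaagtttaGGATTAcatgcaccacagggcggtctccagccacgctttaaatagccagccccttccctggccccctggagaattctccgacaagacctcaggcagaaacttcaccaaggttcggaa
Slc39a12: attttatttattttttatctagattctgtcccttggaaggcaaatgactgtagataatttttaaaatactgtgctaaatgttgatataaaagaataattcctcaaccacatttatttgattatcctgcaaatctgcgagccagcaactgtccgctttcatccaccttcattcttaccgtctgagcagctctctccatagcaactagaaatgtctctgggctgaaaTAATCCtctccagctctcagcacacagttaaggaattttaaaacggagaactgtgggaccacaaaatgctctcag
The Slc6a13 window held TAATCC on the reverse strand at -67 from the start site and CATGTG at -229 (reverse strand) and -154. The Slc39a12 window held TAATCC at -25. Over all 32851 windows of the genome, 7.06% held TAATCC and 14.2% held CATGTG on either strand. The palindromic E-box CACGTG lay in 1 of the 14 windows, that of Slc13a3, and in 7.15% of all windows. Of the 8 windows found for 6 of the endothelial genes, 0 held TAATCC, 1 held CACGTG and 2 held CATGTG, and CATGTG lay in 1 of the 14 RPE windows. A match shows only that these letters are in the window.

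Endothelial cells were dominated by 2 genes. Slc6a6, the taurine carrier TauT, stood at 12.5 and 12.4 UMIs per 10,000, 6.69 and 5.81 times the RPE level of 1.87 and 2.13, and 74.9% and 77.3% of its UMIs lay in endothelial cells. In the other types it ranged from 0.338 to 1.92. Slc9a3r2, a scaffold and not a carrier, stood at 10.8 and 12.0, 5.06 and 6.37 times the Schwann cell level. Lower but also restricted were Slc52a3, a riboflavin carrier, at 0.385 and 0.571, the anion exchanger family member Slc26a10 at 0.164 and 0.196, Slc12a5, the potassium chloride cotransporter KCC2 known from neurons, at 0.136 and 0.0763, and the noradrenaline carrier Slc6a2 at 0.0710 and 0.0577. The remaining 3 were lower still, with the monoamine carrier Slc29a4 at 0.0689 and 0.0557, Slc35f2 at 0.0517 and 0.107 and Slc9b1 at 0.0431 and 0.0268.

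Slc3a2, the heavy chain that pairs with several amino acid exchangers, was found in every type, from 1.98 in stromal and smooth muscle cells to 6.19 in melanocytes and endothelial cells. Its partner Slc7a5 (LAT1) was highest in melanocytes at 1.80 and 1.16, followed by the RPE at 0.427 and 0.578, and was 0.164 and 0.266 in endothelial cells. The 3 stroma-restricted genes were all low: the multidrug and toxin extrusion carrier Slc47a1 at 0.184 and 0.185, the proline carrier Slc6a7 at 0.157 and 0.119, and the neutral amino acid carrier Slc43a1 at 0.0433 and 0.0418. Smooth muscle cells were marked by the amino acid transporter family member Slc38a11 at 2.10 and 1.58 and the anion exchanger Slc4a3 (AE3) at 1.93 and 2.24, against next levels of 0.221 and 0.164 and of 0.0968 and 0.110. Hematopoietic cells had Slc11a1 (NRAMP1), a phagosomal metal exporter, at 0.822 and 1.14, Slc15a3, a peptide and histidine carrier of lysosomes, at 0.804 and 0.989, and the endosomal sodium proton exchanger Slc9a9 at 0.420 and 0.429. Schwann cells had the choline carrier Slc44a1 at 3.60 and 3.41, Slc36a2, a proton-coupled carrier of small amino acids, at 1.60 and 1.66, and Slc35f1 at 1.09 and 0.612. The rule compares levels, so a gene restricted to a small type can have most of its UMIs elsewhere. Hematopoietic cells held 29.9% to 37.7% and 36.4% to 48.3% of the UMIs of their genes. Schwann cells held 18.8% and 20.6% for Slc44a1, 37.9% and 52.4% for Slc36a2, and 88.2% and 82.8% for Slc35f1.

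Other carriers of a known role in this tissue had less contrast. In the RPE the phosphate carrier Slc20a2 stood at 0.944 and 1.08, the sodium, potassium and chloride cotransporter Slc12a2 at 0.907 and 0.927, the glutamine carrier Slc38a1 at 0.734 and 0.795, the neutral amino acid exchanger Slc7a8 at 0.403 and 0.309, the fatty acid transport protein Slc27a1 at 0.443 and 0.887, the folate carrier Slc46a1 at 0.277 and 0.172, the peptide carrier Slc15a2 at 0.147 and 0.149 and Slc37a2 at 0.123 and 0.154. Slc12a2 was also at 0.799 and 0.556 in stromal cells, and Slc27a1 at 0.581 and 0.713 in Schwann cells. In endothelial cells the zinc exporter Slc30a1 stood at 0.558 and 0.468, Slc39a8 at 0.435 and 0.507, the phosphate carrier Slc20a1 at 0.370 and 0.237, and the zinc importer Slc39a10 at 0.265 and 0.254. Smooth muscle cells held the bicarbonate carrier Slc4a7 at 0.642 and 0.569 and the neutral amino acid carrier Slc1a5 at 0.648 and 0.915, the latter close to its level in Schwann cells, 0.726 and 0.688. The zinc importer Slc39a14 was highest in melanocytes at 0.563 and 0.482, from few cells. Slc7a1, Slc7a11 and Slc11a2 stayed below 0.2 in every type of both libraries, and the potassium chloride cotransporter Slc12a4 lay between 0.0914 and 0.750 in all types.

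Within types, subclusters of the deposited clustering were compared with a rule of 2-fold and intervals apart in both libraries. Endothelial cluster 2 expressed Kdr, the VEGF receptor 2, at 16.4 and 14.0 UMIs per 10,000, against 0.611 and 0.907 in cluster 4 and 8.86 and 6.27 in cluster 3. Higher in cluster 2 than in cluster 4 were 2 of the 178 genes, 1.12%, against 2.36% of all genes. One was Slc1a1, with 0.787 (0.666 to 0.924) and 1.06 (0.918 to 1.22) against 0.0306 and 0.0302, and cluster 3 lay between at 0.203 and 0.241. The glutamate carrier was highest among endothelial clusters in the Kdr-high cells, at 19.0% and 19.9% of its RPE level. The summed RPE markers of cluster 2 were 0.646% and 0.581% of those of the RPE. The part of RNA from RPE cells in the Slc1a1 values of cluster 2 was not tested. The other was the choline-like carrier Slc44a2, with 1.71 and 1.37 against 0.611 and 0.604. Higher in cluster 4 were 4 genes, 2.25%, against 2.69% of all genes. They were Slc26a10 with 0.672 and 0.363 against 0.00525 and 0.0219, the fatty acid transport protein family member Slc27a3, Slc12a8 and the nucleotide sugar carrier family member Slc35e4. Slc6a6 differed by less, with 8.28, 15.3 and 16.6 in clusters 2, 3 and 4 of the B6129PF1/J library and 8.71, 14.6 and 14.2 in the C57BL/6J library. Slc7a5 and Slc39a8, a zinc and manganese importer, were highest in cluster 3 and were named after their values were seen. Slc7a5 stood at 0.303 and 0.438 there, with 0.00525 and 0.0602 in cluster 2, and Slc39a8 at 0.634 and 0.713, with 0.236 and 0.290 in cluster 2.

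Schwann clusters 12 and 13 were compared by the same rule. Higher in cluster 13 were 2 solute carriers, 1.12% against 1.17% of all genes: Slc36a2, with 6.14 and 5.34 against 0 and 0.0367, and Slc3a2, with 8.75 and 8.68 against 1.37 and 1.54. Higher in cluster 12 were 4, 2.25% against 1.47% of all genes: the purine base carrier Slc43a3 with 3.14 and 2.97 against 0 and 0.0835, the copper carrier Slc31a2 with 2.52 and 1.72 against 0.372 and 0.417, Slc35f1 with 1.44 and 0.844 against 0.0931 and 0.0835, and Slc29a1 with 0.817 and 0.844 against 0 and 0.0835. Slc36a2 and Slc35f1 were both restricted to Schwann cells but were found in opposite clusters.

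Among the stromal clusters 5 to 8, each had 1 or more solute carriers above its level in all 3 others. Cluster 5 had Slc5a3, a myo-inositol carrier, at 1.40 and 1.10 (1 gene, 0.562% against 0.0888% of all genes). Cluster 6 had Slc38a11 at 0.695 and 0.494, Slc11a1 at 0.338 and 0.279, and the sodium iodide symporter Slc5a5 at 0.206 and 0.231 (1.69% against 2.03%). Cluster 7 had Slc47a1 at 0.836 and 0.970 (0.562% against 0.814%) and cluster 8 had Slc1a3, the glutamate carrier GLAST, at 0.633 and 0.691 (0.562% against 0.037%). Slc38a11 and Slc11a1 were restricted to smooth muscle and hematopoietic cells, and within the stroma both were highest in cluster 6. Slc5a5 was highest of all cell types in the RPE, in both libraries.

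**Figure D3:**
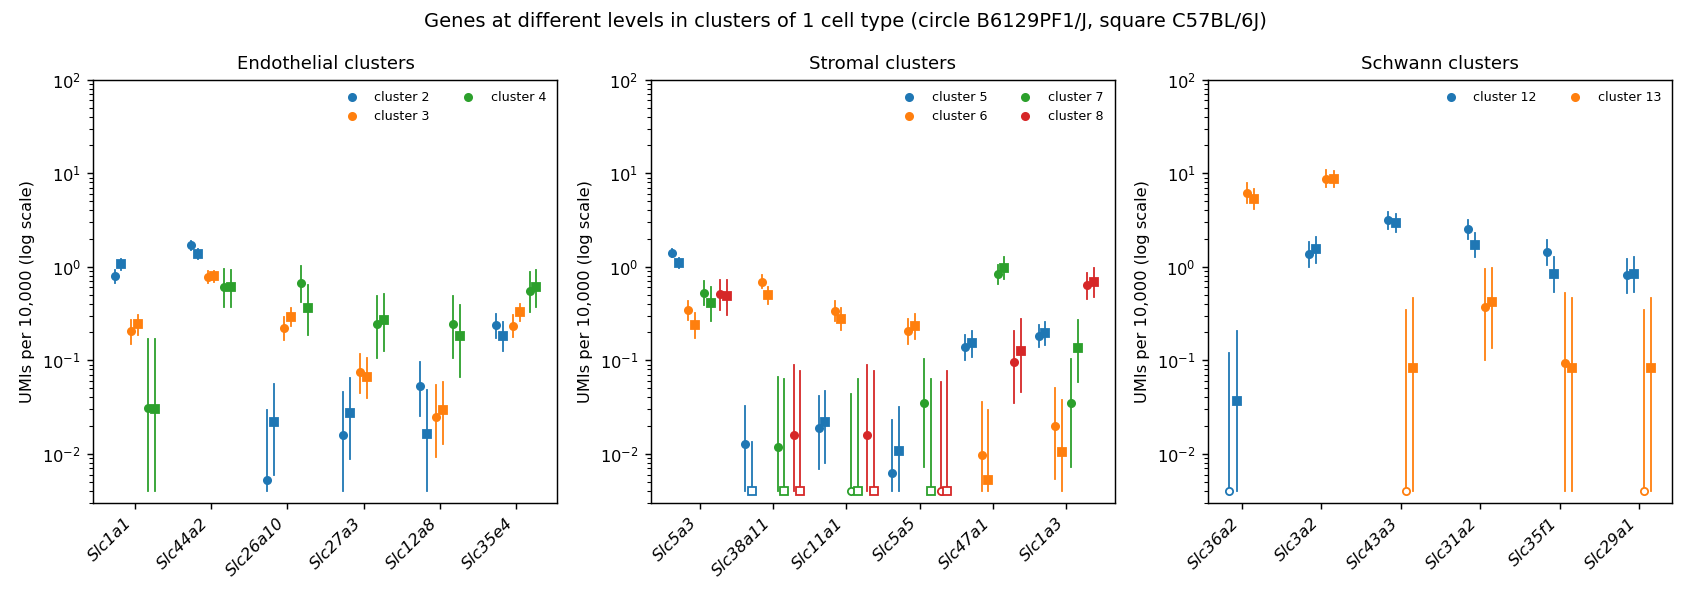
Levels of the genes that differed between subclusters, in UMIs per 10,000, by cluster and library, with exact 95% Poisson intervals and open symbols at the axis edge for 0 UMIs. Slc36a2 and Slc3a2 stand higher in Schwann cluster 13, and Slc43a3, Slc31a2, Slc35f1 and Slc29a1 in cluster 12.

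The 2 libraries were close for most solute carriers. Of 1246 pairs of a gene and a cell type, 18 differed by 2-fold or more with intervals apart, 1.44% against 1.34% of the pairs of all genes, 9 in each direction (0.713% of all pairs were higher in C57BL/6J and 0.627% in B6129PF1/J). Several of the 18 involved few UMIs. The largest difference was that of Slc22a2, the organic cation transporter OCT2, in smooth muscle cells. It had 124 UMIs in B6129PF1/J and 10 in C57BL/6J, or 0.699 (0.581 to 0.833) and 0.0558 (0.0268 to 0.103) per 10,000, a 12.5-fold difference. The UMIs lay in 52 of 373 and 9 of 463 smooth muscle cells, at median depths of 4635.0 and 3803.0 UMIs a cell, while 0 of 863 and 1 of 1024 endothelial cells, at median depths of 4153.0 and 3420.0, held one. Its neighbor and relative Slc22a3 (OCT3) had 29 UMIs in 24 smooth muscle cells of B6129PF1/J and 0 in C57BL/6J, at least 9.76-fold higher against a floor of 3 UMIs, and 9 cells held both. On chromosome 17 of GRCm38, Slc22a2 spans 12584132 to 12628488 on the plus strand and Slc22a3 12418960 to 12507704 on the minus strand. In the RPE Slc22a2 stood at 0.0400 and 0.0286, with overlapping intervals.

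Slc6a14, a carrier of neutral and basic amino acids of epithelia, had 0 UMIs in stromal cells of B6129PF1/J and 31 in C57BL/6J, of which 29 came from 1 cell of cluster 5. That cell had 15926 UMIs and also 33 of the library's 37 stromal UMIs of Slc39a4, 75 of 78 Krt7 UMIs of the library and 55 of 62 of Elf3, with 0 of Dcn, Lum, Col1a1 and Col1a2, none of the 4 stromal genes being found in it. Without it, Slc6a14 had 2 UMIs and Slc39a4 4 in stromal cells of that library, and 16 pairs differed. Of the genes that moved on more cells, Slc30a10, a manganese exporter, stood at 0.0642 and 0.0105 in stromal cells. Slc35d3 was at 0.00597 and 0.0401 there, Slc4a8, a sodium bicarbonate exchanger, had 21 and 0 UMIs in the RPE, and Slc15a4, a lysosomal peptide carrier, was at 2.14 and 0.482 in melanocytes, from 19 and 5 UMIs. Slc40a1, the iron exporter ferroportin, was at 0.238 and 0.808 in hematopoietic cells. Mast cell markers summed to 0.0365 and 20.8 in those cells, and the 2 cells of C57BL/6J with 10 or more UMIs of Cpa3, Mcpt4 and Tpsb2 held 0 of its 49 Slc40a1 UMIs. The part of a different makeup of the hematopoietic cells in the Slc40a1 values was not tested.

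**Figure D4:**
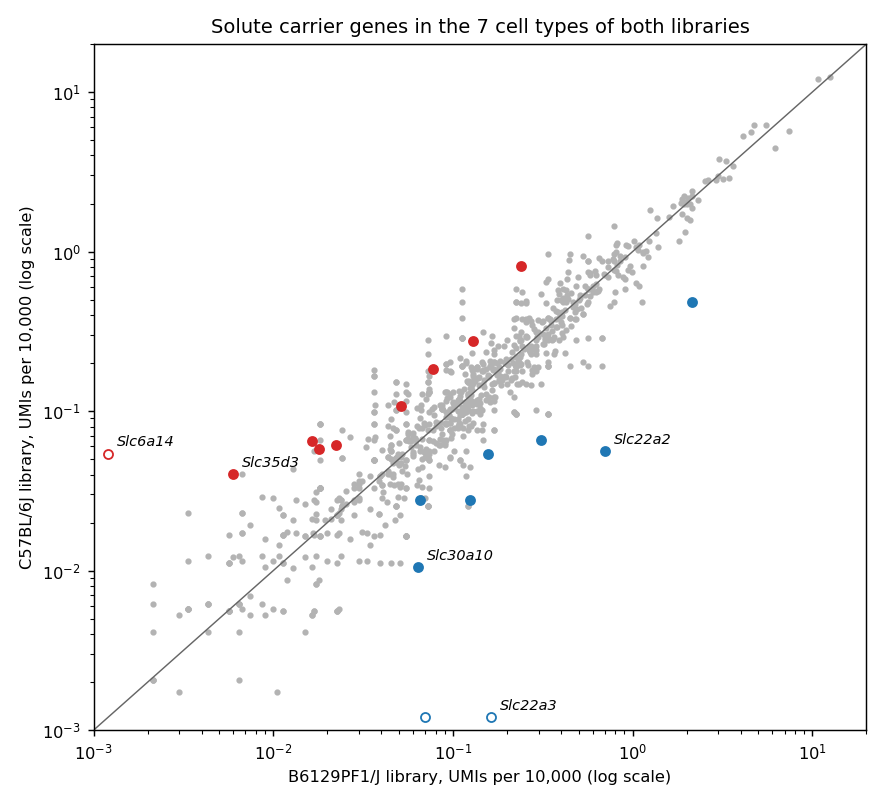
Levels of solute carriers in the B6129PF1/J (x axis) and C57BL/6J (y axis) libraries, in UMIs per 10,000 on log axes, with 1 point for each gene and cell type. Blue and red points differ by 2-fold or more with intervals apart, open points are at 0 in a library and drawn at the axis edge, and Slc22a2 in smooth muscle cells (0.699 and 0.0558) lies far off the line of equal levels.

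In RPE/choroid tissue, the deleted gene Ihh was at 1.53 FPKM in Ihh+/+ and 0.454 in Ihh iΔEC/iΔEC mice, and the hedgehog target Gli1 was at 9.40 and 3.15. Of the 178 genes, 168 were listed and 142 reached 1 FPKM. In bulk tissue, fewer cells of a type and less RNA per cell cannot be told apart. By 2-fold, 1 gene was higher, 0.704% against 1.1% of all genes, and 0 were lower against 0.745%. By 1.5-fold the counts were 3 (2.17% of all genes) and 1 (2.53%). The median log2 ratio was 0.02, and -0.04 over all genes. The 1 gene was Slc6a14, at 0.0433 FPKM in Ihh+/+ and 1.14 in Ihh iΔEC/iΔEC, 26.3 times. All 6 genes of corneal and ciliary epithelia, chosen after values were seen, were higher in the same group, such as Krt12 at 0.861 and 16.4 FPKM and Krt15 at 0.148 and 31.0, and their part in the result was not tested. Next were Slc6a15, a neutral amino acid carrier, from 0.916 to 1.82, and Slc4a4, a sodium bicarbonate cotransporter, from 3.02 to 5.08. At the other end Slc40a1 was at 3.22 and 1.78, Slc39a8 at 2.09 and 1.47 and Slc7a7, a cationic amino acid exchanger, at 2.61 and 1.88. Of the mast cell markers, Cpa3, Mcpt4 and Tpsb2 were at 0.279, 0.304 and 0.377 of the control value and Kit at 0.897. The hematopoietic markers Cd74, Ptprc, Csf1r and Lyz2 were at 0.916, 0.985, 1.09 and 1.40. The study reported lower Cd163, Pf4, Mrc1, Gpr34 and Cd72, genes enriched in choroidal macrophages, in the same comparison. By its staining, the area covered by macrophages was not altered. The part of these cells in the Slc40a1 value was not tested.

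The RPE-restricted carriers listed in the tissue table lay somewhat higher without endothelial Ihh. Of the 12 genes, 11 were listed, Slc39a4 being absent, and all 11 reached 1 FPKM. Each had a log2 ratio above 0, from 0.15 to 0.54 with a median of 0.31. Slc6a13 was at 76.1 and 110.5 FPKM, Slc39a12 at 23.4 and 30.8 and Slc1a1 at 121 and 134. This was not particular to carriers, since 174 of 190 genes restricted to the RPE by the same rule, 91.6%, lay above 0 with a median of 0.27. Beside them, the 6 RPE markers were at 1.02 to 1.34 of control, the 5 endothelial markers at 0.805 to 0.989, the 6 stromal markers at 0.524 to 0.832, the 4 melanocyte markers at 0.544 to 0.701 and the 6 rod and cone markers at 0.280 to 0.424. The part of a changed makeup of the tissue in the carrier values was not tested. The 5 endothelial-restricted genes with 1 FPKM had a median log2 ratio of 0.05, with 3 above 0, while the 142 genes restricted to endothelial cells by the same rule had a median of -0.17, with 24.6% above 0. Slc6a6 was at 79.3 and 82.0 FPKM and Slc9a3r2 at 32.7 and 25.4.

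In cultured GLI1+ cells, the hedgehog target Gli1 was at 0.028 FPKM with DMSO and 3.65 with SAG, and Ptch1 at 1.13 and 10.1. Of 168 solute carriers listed, 107 reached 1 FPKM. By 2-fold 1 gene was higher, 0.935% against 0.387% of all genes, and 0 were lower against 1.18%. By 1.5-fold the counts were 3 (1.38%) and 0 (2.45%). The gene was Slc6a6 at 31.3 FPKM with DMSO and 72.9 with SAG, 2.33 times. Slc5a3 and the vitamin carrier Slc5a6 followed, at 1.66 and 1.52 times their DMSO values, from 0.799 to 1.33 and from 0.737 to 1.12 FPKM. The lowest ratio was that of Slc7a2, a carrier of basic amino acids, at 0.764. In the stroma of the single-cell libraries, Slc6a6 stood at 1.69 and 1.92 UMIs per 10,000, and by cluster at 2.05, 0.708, 2.58 and 1.77 in clusters 5 to 8 of B6129PF1/J. In the tissue of the Ihh comparison it was at 79.3 and 82.0 FPKM. That value covers all cell types, and 74.9% and 77.3% of the single-cell Slc6a6 UMIs lay in endothelial cells. A change in stromal cells alone could not be read from it.

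**Figure D5:**
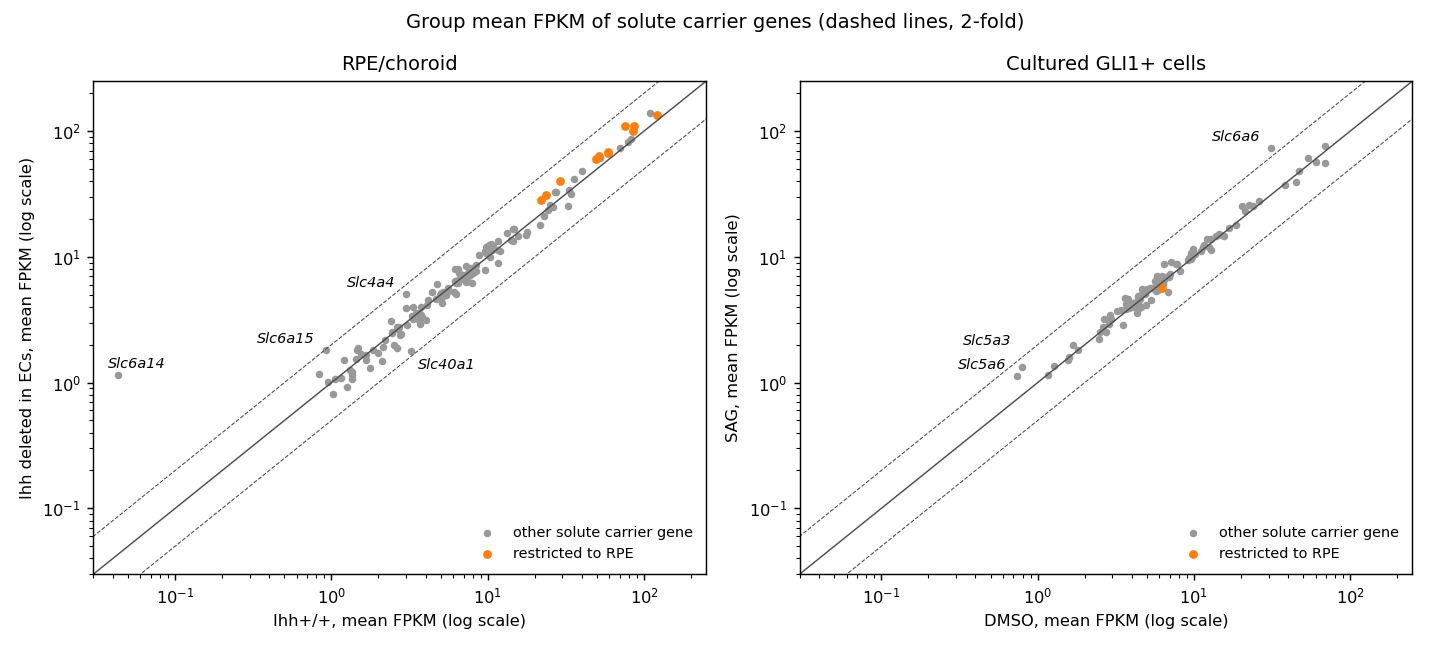
Group mean FPKM of solute carriers with 1 FPKM or more in the higher group, in RPE/choroid tissue (Ihh+/+ against Ihh iΔEC/iΔEC) and in GLI1+ cells (DMSO against SAG), on log axes with dashed lines at 2-fold and RPE-restricted genes in orange, without error because the tables hold group averages. Slc6a14 (0.0433 to 1.14 FPKM) and Slc6a6 in SAG-treated cells (31.3 to 72.9 FPKM) lie farthest from the line of equal levels.

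Endothelial cells of different tissues were listed for only 99 genes, of which 1 was a solute carrier in this set. The study chose those genes for higher levels in choroidal endothelial cells than in those of the other tissues. The direction of the contrast below was therefore set by that choice. In the authors' averages Slc26a7 was at 1.44 FPKM in endothelial cells of the choroid, whose libraries are not analysed here, 0.063 in neural retina and was listed at 0 in lung, liver and heart. In the single-cell libraries Slc26a7 was at 0.0172 and 0.0227 UMIs per 10,000 in endothelial cells and 1.35 and 1.30 in the RPE.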

How the data were processed

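Single-cell libraries were made by the authors with the 10x Genomics 3′ method, aligned to mm10 with Cell Ranger and clustered with Seurat 2.1, and the deposited tables hold UMI counts per gene and cell with a table of cluster names. The bulk libraries were mapped with STAR 2.4.0f1 and quantified as FPKM with Cufflinks 2.0.2, with SAMtools 0.1.19 and CASAVA 1.8.2 also named in the submitters' processing notes, and the deposited tables hold group averages only. Their columns of fold changes and p-values were not used.

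Counts were summed per cell type or cluster and library and divided by all UMIs of that set, times 10,000, with exact Poisson 95% intervals. 3′ tags were not divided by gene length. No test was possible with 1 library per strain, and bulk averages allowed only ratios, with 1 FPKM or more in the higher group. Scripts were tested on simulated data. The members, gene lists and rules were chosen with earlier results of these data known. Named genes were up to 5 restricted genes per type, the 3 highest genes of each type, up to 5 genes with the largest fold in each subcluster, library or bulk contrast, those beside the 30 UMI limit and carriers with a known role in this tissue. Of these last, Slc38a5, Slc26a4, Slc8a1, Slc17a7 and Slc18a2 are not among the 178. A few further items are not reported here. Promoter sequences come from RefSeq on GRCm38.p6. Python 3.11.15, numpy 2.4.6, pandas 2.3.3, scipy 1.17.1 and matplotlib 3.10.9 were used.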

Additional observations from a re-analysis of the deposited data

How the results depend on the processing

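The single-cell levels carry counting error only, and with 1 library per strain and pooled mice the spread between animals is unknown. No paired analysis was possible because the bulk tables hold only group averages, and for the same reason limma and leaving out each library were not run. Of 178 genes, 123 were highest in the same type in both libraries, and 103 to 126 were under the alternatives. The 32 restricted genes were 15 at 10-fold and 25 to 42 under the other settings. The 9 restricted to endothelial cells were 4 at 10-fold and 5 with a minimum of 30 UMIs. Of 32 printed levels of restricted genes, 26 moved outside their interval when the 50 highest genes left the total, upward since that total is smaller, such as Slc1a1 in the RPE from 4.13 to 7.56 and Slc24a1 from 2.89 to 5.29 UMIs per 10,000. With thinned cells 8 moved, with a mean over cells 4, and without the deepest 5% of cells 0. The summed levels, an alternative added after seeing the data, kept the RPE and then endothelial cells highest for all 178 genes under every setting, while nucleoside carriers were highest in melanocytes of B6129PF1/J with thinned cells, at 7.72 against 7.50 in Schwann cells. The 6 genes that differed between endothelial clusters 2 and 4 were 3 with cells thinned to 1700 UMIs. The 18 pairs that differed between libraries were 28 at 1.5-fold and 5 with thinned cells, and were 16 without the single cell with most Slc6a14 UMIs, an alternative added after seeing the data. In the Ihh comparison the 1 gene past 2-fold became 4 at 1.5-fold, 3 with no minimum FPKM and 2 when scaled by the median ratio, Slc6a15 being added at a log2 ratio of 1.02. With SAG the 1 gene became 3 at 1.5-fold and 19 with no minimum FPKM. The thinned counts keep fewer UMIs, and for the rest the cause was not tested.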
